A study of Homo sapiens with 8 samples.

Results

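The proteasome genes described here are the 44 of 16829 genes in the count table whose symbol is PSM followed by a letter from A to G and a number, leaving out PSMB8 and PSMB9. They comprise the 14 standard subunits of the core particle, the core subunit PSMB10, 17 subunits of the regulatory particle, 4 alternative caps, the inhibitor PSMF1 and 7 assembly chaperones. All 44 passed the filter on low counts, so none drops out below. Their transcripts were measured by bulk RNA-seq in RKO and SW480, a pair of established human colon cancer lines, in 8 libraries of 31550173 to 34921085 counts.

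RKO cells labelled as overexpressing CYP1B1, a cytochrome P450 enzyme (RKO CYP1B1, 2 libraries), were compared with RKO control cells (2 libraries). In the other line, cells with a hairpin against CYP1B1 (SW480 shCYP1B1, 2 libraries) were compared with cells given a non-targeting hairpin (SW480 shNT, 2 libraries). The protocol mentions a CYP1B1 lentivirus for both lines, and the vector carried by the RKO control cells is not given in the sources used here. Each line was manipulated in a single direction and with a single construct, so effects of CYP1B1 and off-target effects of the hairpin or vector cannot be told apart. The labels give no separate culture for each replicate, and a p-value here reflects only the spread between the libraries, which may be technical.

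CYP1B1 matched the labels, at 437 and 519 CPM (counts scaled to library size) in RKO CYP1B1 against 0.686 and 0.701 CPM in RKO control. It stood at 0.367 and 0.301 CPM in SW480 shCYP1B1 against 1.44 and 2.20 CPM in SW480 shNT, which is 12 and 10 counts against 50 and 76. The transcript was rare in both SW480 groups. As a check of the labelled epithelium, 12 colorectal epithelial markers summed to 167 to 177 FPKM (counts scaled to gene length and library size) in RKO CYP1B1, 155 to 159 in RKO control, 3260 to 3280 in SW480 shCYP1B1 and 3020 to 3130 in SW480 shNT. Over 1 FPKM stood 4, 4, 6 and 7 of the 12 in these groups, and 5, 3, 0 and 1 were at 0. RKO held little EPCAM, at 1.18 and 1.21 FPKM in RKO CYP1B1, against 1.31 and 1.13 FPKM in RKO control, and almost no CDH1, at 0.0403 and 0.0353 FPKM. In SW480, EPCAM averaged 14.3 FPKM in shCYP1B1 and 84.3 FPKM in shNT. All 16 stromal, endothelial and immune markers were in the table and summed to 396 to 410 FPKM in RKO CYP1B1, 421 to 464 in RKO control, 20.2 to 20.7 in SW480 shCYP1B1 and 9.01 to 10.6 in SW480 shNT. CD68, a lysosomal protein, supplied nearly all of that sum in RKO, at 400 and 440 FPKM, while the leukocyte marker PTPRC and the endothelial marker PECAM1 stayed under 0.03 FPKM in every group. The part of these marker shifts in the results below was not tested.

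The proteasome degrades proteins that carry ubiquitin chains. Its barrel-shaped core is built of stacked rings of alpha and beta subunits, and PSMB5, PSMB6 and PSMB7 hold the active sites inside it. The regulatory particle binds ubiquitin in its lid and base, removes it, and threads the substrate into the core with a ring of ATPases, while PSME proteins form other caps and dedicated chaperones help the rings assemble. In human cells, NFE2L1 is known to raise transcription of proteasome genes together when proteasome activity is short, through antioxidant response elements in their promoters.

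Promoter sequences are shown for the regulatory gene and the standard core gene with the largest increase in RKO, PSMD3 and PSMB3, and for the members with the largest decrease in SW480, PSME3 and PSMC5. All lie on the plus strand of chromosome 17, and each sequence is the 250 bases before the gene's start in RefSeq on GRCh38.p14. Capitals mark TGACNNNGC, the core letters of an antioxidant response element, and CCAAT, on either strand, so that CCAAT on the minus strand reads ATTGG. PSMD3 spans chr17:39980557-39980806, PSMB3 chr17:38752491-38752740, PSME3 chr17:42833147-42833396 and PSMC5 chr17:63827181-63827430.

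PSMD3: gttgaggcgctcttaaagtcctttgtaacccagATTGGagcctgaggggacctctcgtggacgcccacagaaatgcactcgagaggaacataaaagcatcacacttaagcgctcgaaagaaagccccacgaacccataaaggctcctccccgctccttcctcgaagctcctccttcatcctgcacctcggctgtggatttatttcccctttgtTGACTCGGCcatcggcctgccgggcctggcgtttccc

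PSMB3: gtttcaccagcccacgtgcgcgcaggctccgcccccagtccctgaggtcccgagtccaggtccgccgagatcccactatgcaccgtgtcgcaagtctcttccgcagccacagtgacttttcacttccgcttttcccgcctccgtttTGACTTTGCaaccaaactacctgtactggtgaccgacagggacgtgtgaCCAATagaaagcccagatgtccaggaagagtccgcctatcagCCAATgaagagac

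PSME3: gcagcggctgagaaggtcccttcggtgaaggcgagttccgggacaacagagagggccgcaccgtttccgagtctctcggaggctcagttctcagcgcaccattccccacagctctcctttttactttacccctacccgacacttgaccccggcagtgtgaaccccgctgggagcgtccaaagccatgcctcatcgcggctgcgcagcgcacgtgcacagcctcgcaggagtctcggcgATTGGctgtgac

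PSMC5: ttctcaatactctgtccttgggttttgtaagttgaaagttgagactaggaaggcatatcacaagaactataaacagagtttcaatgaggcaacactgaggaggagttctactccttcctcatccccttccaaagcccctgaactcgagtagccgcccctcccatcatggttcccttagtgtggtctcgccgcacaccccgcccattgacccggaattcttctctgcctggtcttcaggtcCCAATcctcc

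TGACNNNGC lay in the windows shown for PSMD3 and PSMB3 and not in those for PSME3 or PSMC5, while CCAAT lay in all 4. Over windows of 300 bases, from 250 before to 50 after the start, 38 of the 44 members had a RefSeq entry. TGACNNNGC was found in 12 of these 38 (31.6%), against 14.9% of the 11505 promoters of tested genes. CCAAT was found in 17 of 38 (44.7%, against 36.2%), and GGAA, the core of the ETS factor motif, in 37 of 38 (97.4%, against 95.1%). All motifs were searched on both strands, and a match describes letters and not a bound site. TGACNNNGC was held by members that rose in RKO (PSMB3, PSMD1, PSMD3, PSMD9 and PSME2), by members that fell there (PSMD12 and PSME4), and by members not called there (PSMC4, PSMD5, PSME1, PSMG1 and PSMG2).

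In RKO CYP1B1, 12 of the 14 standard core genes were higher than in RKO control, as were genes of the base, lid, caps and chaperones. In edgeR's quasi-likelihood test with Benjamini-Hochberg adjustment over all genes, 23 of the 44 members rose and 3 fell, where 13.8% of all genes tested rose and 13.8% fell. The members' median log2 fold change was 0.28, or 1.21-fold, against 0.00 over all genes, with a range of -0.31 to 0.76. Both RKO CYP1B1 libraries lay above both control libraries for 31 members and below them for 5, where 28.8% and 30.0% of all genes did. As a share of all counts, the members made up 0.784% and 0.807% in RKO CYP1B1, against 0.720% and 0.700% in RKO control. In bulk RNA, fewer cells of a type and less RNA per cell cannot be told apart. Neither the count of 23 nor that of 3 held when single libraries were left out. For the 3 this included the SW480 libraries (all 4 groups share 1 estimate of the spread). The members' median log2 fold change was 0.31 without RKO control replicate 1 and 0.23 without RKO control replicate 2. Without RKO CYP1B1 replicate 1 or 2 it was 0.27 or 0.23. Over all genes, the RKO CYP1B1 libraries differed by a median of 0.195 on the log2 scale, against 0.098 in RKO control.

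**Figure D1:**
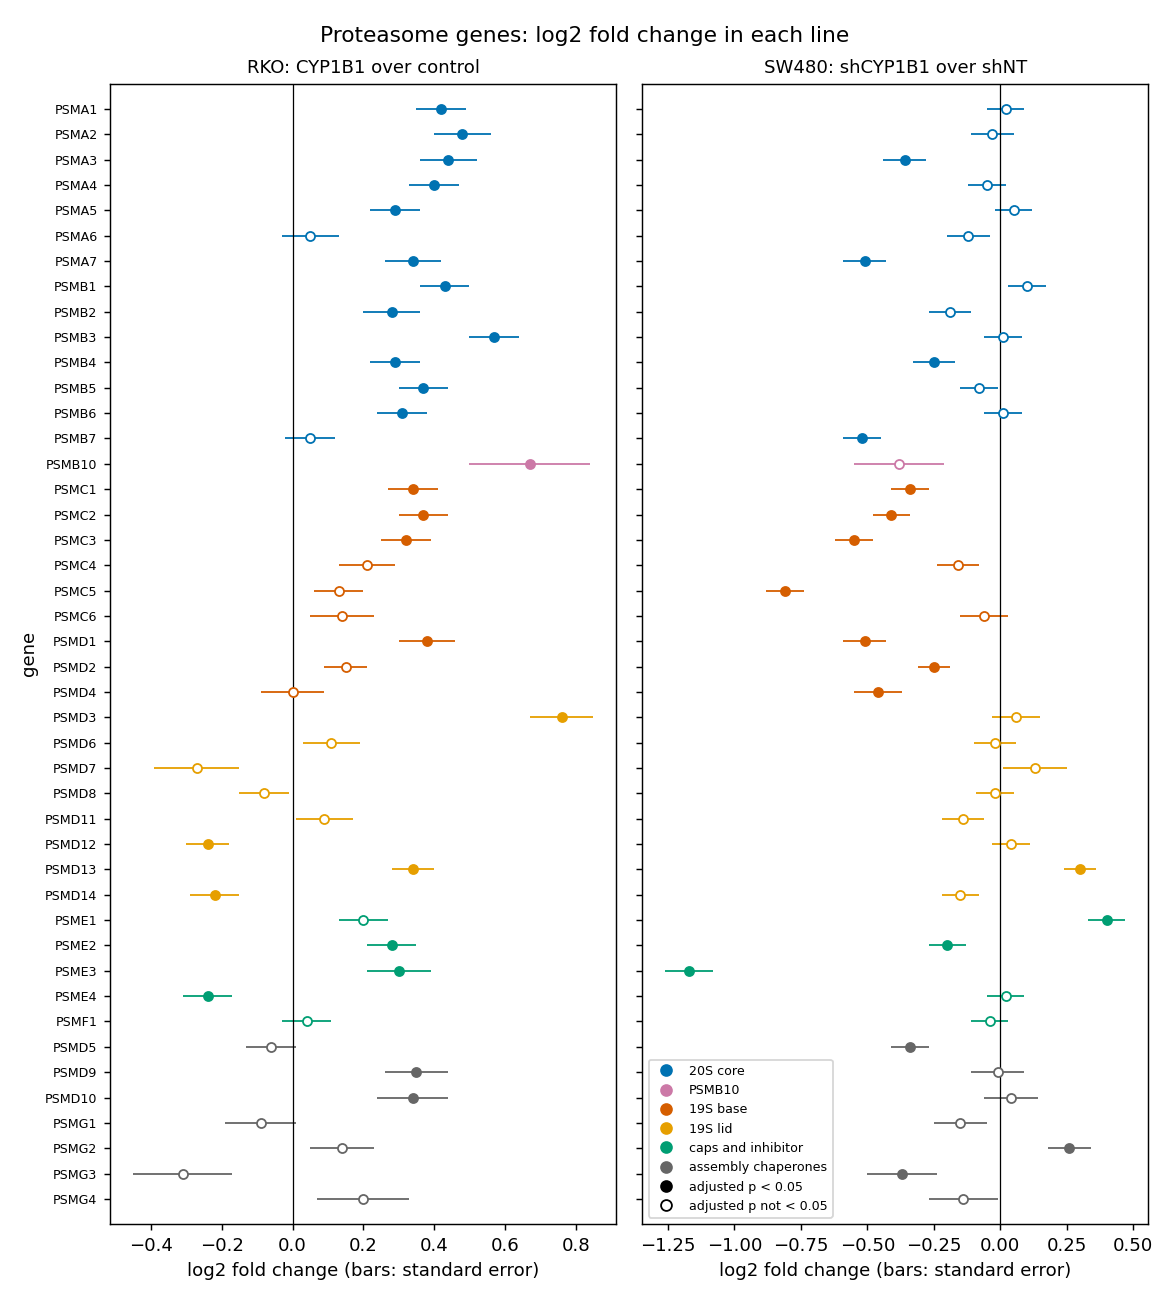
Log2 fold change of each of the 44 members (points; bars are the standard error) in RKO, CYP1B1 over control (left), and in SW480, shCYP1B1 over shNT (right), coloured by role, with filled points for an adjusted p under 0.05. In RKO the core genes lie to the right of 0, and in SW480 the filled points lie mostly to the left, with PSME3 at -1.17.

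In the core particle, 12 of the 14 standard subunits rose in RKO CYP1B1 and none fell, with a median log2 fold change of 0.35. The alpha ring forms the gate of the barrel, and 6 of its 7 genes rose. PSMA1 had 190 and 196 CPM in RKO CYP1B1, against 146 and 143 CPM in RKO control, higher by 0.42 on the log2 scale (SE 0.07, adjusted p = 0.00102). PSMA2 had 97.8 and 94.4 CPM in RKO CYP1B1, against 66.6 and 71.3 CPM in RKO control (log2 fold change 0.48, SE 0.08, adjusted p = 0.00108). The groups did not overlap for either gene, and the replicates of each group lay close together. PSMA6 was the alpha gene that did not pass, at 0.05 (adjusted p = 0.667). PSMA5 and PSMA7 rose by 0.29 and 0.34 and lost the call without RKO control replicate 2 (adjusted p = 0.0968 and 0.0976), as PSMA5 did without RKO control replicate 1 (0.0626).

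All 4 beta genes without an active site rose in RKO CYP1B1. PSMB3 had 174 and 165 CPM in RKO CYP1B1, against 119 and 110 CPM in RKO control, the largest log2 fold change of the core genes other than PSMB10, at 0.57 (SE 0.07, adjusted p = 0.000334). PSMB1 had 109 and 111 CPM in RKO CYP1B1, against 84.5 and 78.9 CPM in RKO control (log2 fold change 0.43, SE 0.07, adjusted p = 0.00119). Again every overexpression library exceeded every control library. PSMB2 and PSMB4 rose by 0.28 and 0.29 and lost the call without RKO control replicate 2 (adjusted p = 0.159 and 0.136).

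The catalytic genes split. PSMB5, the chymotrypsin-like subunit that clinical proteasome inhibitors target, had 218 and 232 CPM in RKO CYP1B1, against 181 and 167 CPM in RKO control (log2 fold change 0.37, SE 0.07, adjusted p = 0.00312). PSMB6, the caspase-like subunit, had 114 and 109 CPM in RKO CYP1B1, against 93.0 and 87.8 CPM in RKO control (log2 fold change 0.31, SE 0.07, adjusted p = 0.0106). Both genes were higher in each overexpression library, but neither passed without RKO control replicate 2 (adjusted p = 0.0521 and 0.109). PSMB7, the trypsin-like subunit, had 404 and 385 CPM in RKO CYP1B1, against 397 and 363 CPM in RKO control. Its groups overlapped, and its log2 fold change of 0.05 (SE 0.07, adjusted p = 0.613) turned to -0.01 without RKO control replicate 2.

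PSMB10 replaces PSMB7 in immunoproteasomes, the form that cells assemble under interferon. It was rare, at 15.1 and 16.5 CPM in RKO CYP1B1, against 9.07 and 10.7 CPM in RKO control. All overexpression values were above all control values, by 0.67 on the log2 scale (SE 0.17, adjusted p = 0.0142), and the call was lost without RKO control replicate 1 (0.56, adjusted p = 0.113). Per length, PSMB10 stood at 3.75% and 4.31% of the FPKM of PSMB7 in RKO CYP1B1, against 2.30% and 2.97% in RKO control. Of 7 neighbouring immunoproteasome and antigen processing genes, 2 rose and none fell (28.6% of the list, where 13.8% of all genes rose; median log2 fold change 0.01). These were PSMB9, the immunoproteasome counterpart of PSMB6, at 24.7 and 19.7 CPM in RKO CYP1B1, against 10.5 and 10.9 CPM in RKO control (log2 fold change 1.05, SE 0.14, adjusted p = 0.000458), and the peptide transporter TAP1 (0.37). PSMB8, the counterpart of PSMB5, had a log2 fold change of -0.03.

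In the regulatory particle, 6 of 17 genes rose and 2 fell in RKO CYP1B1, with a median log2 fold change of 0.14. The shares were 35.3% and 11.8%, where 13.8% of all genes rose and 13.8% fell. Of the 6 ATPases that unfold substrates, PSMC1, PSMC2 and PSMC3 rose, by 0.34, 0.37 and 0.32, and all 6 values were positive. PSMC4 passed as higher without RKO control replicate 1 (0.34, adjusted p = 0.0346) or either RKO CYP1B1 library (adjusted p = 0.00956 and 0.049). Of the base genes outside the ATPase ring, the scaffold PSMD1 rose by 0.38, while the scaffold PSMD2 stood at 0.15 and the ubiquitin receptor PSMD4 at 0.00, neither passing the test. Without RKO CYP1B1 replicate 2, PSMD1 stood at 0.25. Without RKO control replicate 2, PSMC1, PSMC3 and PSMD1 did not pass (adjusted p = 0.076, 0.0734 and 0.0573), nor did PSMC3 without RKO control replicate 1 (0.0509).

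In the lid, 2 of 8 genes rose and 2 fell in RKO CYP1B1 (25% each way, where 13.8% of all genes rose and 13.8% fell). PSMD3, a lid scaffold subunit at chr17:39980797-39997960 in GENCODE 29, had 202 and 254 CPM in RKO CYP1B1, against 136 and 133 CPM in RKO control. This was the largest increase of any member, at 0.76 on the log2 scale (SE 0.09, adjusted p = 0.000305), with the overexpression libraries well apart from each other and both above the controls. PSMD12, another scaffold subunit of the lid, had 183 and 179 CPM in RKO CYP1B1, against 214 and 214 CPM in RKO control (log2 fold change -0.24, SE 0.06, adjusted p = 0.018). PSMD14, the enzyme that cuts ubiquitin off the substrate, had 141 and 133 CPM in RKO CYP1B1, against 161 and 158 CPM in RKO control (log2 fold change -0.22, SE 0.07, adjusted p = 0.0347). For both genes the groups did not overlap, and neither passed without RKO control replicate 1 (adjusted p = 0.0896 and 0.159) or replicate 2 (0.107 and 0.137). PSMD13 rose by 0.34 (adjusted p = 0.00296). PSMD7, the partner of PSMD14, had 107 and 77.3 CPM in RKO CYP1B1, against 116 and 106 CPM in RKO control, and its groups overlapped (log2 fold change -0.27, SE 0.12, adjusted p = 0.135). Without RKO CYP1B1 replicate 1 it passed as lower, at -0.52 (adjusted p = 8.6e-07), and without replicate 2 it stood at -0.05 (adjusted p = 0.653).

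**Figure D2:**
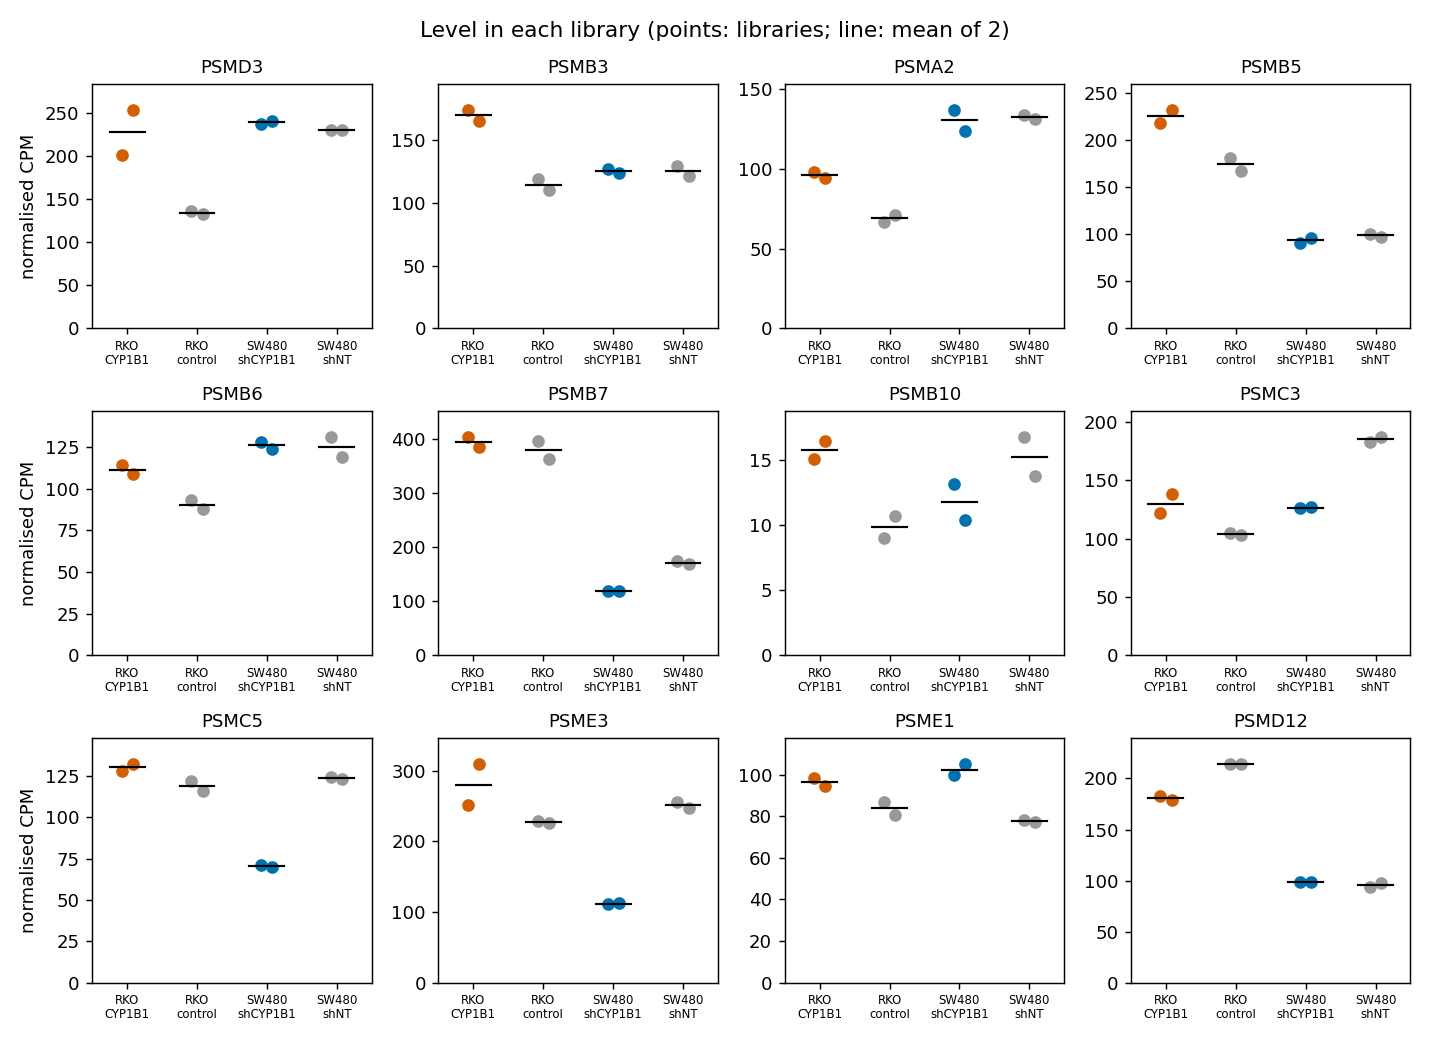
Level of 12 members in each library (points, CPM scaled with TMM factors; lines are the mean of the 2 libraries of a group), in the order RKO CYP1B1, RKO control, SW480 shCYP1B1 and SW480 shNT. PSMD3, PSMB3 and PSMA2 are high in RKO CYP1B1 over RKO control and close between the SW480 groups, while PSMC5, PSMB7 and PSME3 are low in SW480 shCYP1B1.

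Among the alternative caps, PSME2, which forms the interferon-inducible cap with PSME1, rose in RKO CYP1B1 by 0.28, and PSME3, the nuclear cap, by 0.30 (SE 0.09, adjusted p = 0.0269). PSME3 had 251 and 309 CPM in RKO CYP1B1, against 229 and 226 CPM in RKO control, and its log2 fold change was 0.14 without RKO CYP1B1 replicate 2 (adjusted p = 0.0505). PSME2 and PSME3 also lost their calls without either RKO control library (adjusted p = 0.06 and 0.113 without replicate 1, 0.0926 and 0.149 without replicate 2). PSME4, a nuclear cap linked to acetylated histones, had 156 and 171 CPM in RKO CYP1B1, against 195 and 191 CPM in RKO control (log2 fold change -0.24, SE 0.07, adjusted p = 0.0241). Without RKO control replicate 1 or 2, PSME4 did not pass (adjusted p = 0.126 and 0.106). PSME4, PSMD12 and PSMD14 did not pass in a fit to the RKO libraries alone (adjusted p = 0.135, 0.105 and 0.133). In that fit PSMA5, PSMA7, PSMB2, PSMB4, PSMC3, PSME2 and PSME3 also lost their calls as higher (adjusted p from 0.0529 to 0.114). PSME1, the partner of PSME2, stood at 0.20 (adjusted p = 0.0561; 0.0116 without RKO CYP1B1 replicate 2) and PSMF1 at 0.04.

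Of the assembly chaperones, PSMD9 and PSMD10, which hold ATPases during assembly of the base, rose by 0.35 and 0.34, and PSMD5 stood at -0.06. Neither call held without RKO control replicate 1 (adjusted p = 0.0729 and 0.0762) or replicate 2 (0.12 and 0.158). None of PSMG1 to PSMG4, which assemble the alpha ring in pairs, passed, with log2 fold changes from -0.31 for PSMG3 to 0.20 for PSMG4. Without RKO CYP1B1 replicate 1, PSMG3 and PSMG1 passed as lower, at -0.53 and -0.24 (adjusted p = 0.00108 and 0.0124), while without replicate 2 they stood at -0.12 and 0.05. POMP, the maturation factor on which beta rings are built, had 91.2 and 100 CPM in RKO CYP1B1, against 52.6 and 56.5 CPM in RKO control (log2 fold change 0.81, SE 0.08, adjusted p = 0.000101). Over the 16 maturation and remodelling genes as a whole, 4 rose and 2 fell (25% and 12.5%, against 13.8% of all genes each way), with a median of -0.09. Of 3 subunits that carry other names, the small lid subunit SEM1 rose by 0.62 (SE 0.07, adjusted p = 0.000139), and ADRM1 and UCHL5 did not pass.

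In SW480 shCYP1B1 more members fell than rose. By the same test 3 members rose and 15 fell, where 25.3% of all genes rose and 25.3% fell. The share of members that fell was thus 34.1%, and in RKO the share that rose was 52.3%. The median log2 fold change of the members was -0.13, or 0.912-fold, against 0.00 over all genes, and the range was -1.17 to 0.40. Both shCYP1B1 libraries lay below both shNT libraries for 23 members and above them for 7, where 40.4% and 40.3% of all genes did. The members took 0.539% and 0.540% of all counts in shCYP1B1, against 0.637% and 0.630% in shNT.

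PSME3, at chr17:42824385-42843758, had 111 and 112 CPM in SW480 shCYP1B1, against 255 and 247 CPM in SW480 shNT. The replicates nearly coincided, and the gene was 2.25-fold lower in shCYP1B1, the largest change of any member in either line (log2 fold change -1.17, SE 0.09, adjusted p = 2.15e-06). BECN1, which overlaps an exon of PSME3 on the opposite strand, fell by 0.44 in SW480 shCYP1B1 and by 0.29 in RKO CYP1B1, and reads of the overlap cannot be assigned because the use of strand in counting is not given in the sources used here. PSME1 moved the opposite way from PSME3, at 99.6 and 105 CPM in SW480 shCYP1B1, against 78.4 and 77.1 CPM in SW480 shNT (log2 fold change 0.40, SE 0.07, adjusted p = 0.00087). Its partner PSME2 fell by 0.20 (adjusted p = 0.0276), a call that was lost when any SW480 library was left out (adjusted p from 0.0736 to 0.209).

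The base of the regulatory particle held 7 of the 15 decreases in SW480 shCYP1B1. Of its ATPases 4 of 6 fell (66.7%, where 25.3% of all genes did). PSMC4 stood at -0.16, and PSMC6 at -0.06, which turned to 0.04 without SW480 shNT replicate 2. PSMC5, at chr17:63827152-63832026, had 71.0 and 70.1 CPM in SW480 shCYP1B1, against 124 and 123 CPM in SW480 shNT, which is 1.75-fold lower (log2 fold change -0.81, SE 0.07, adjusted p = 3.77e-06). FTSJ3, which overlaps it on the opposite strand, fell by 0.54. PSMC3 had 126 and 127 CPM in SW480 shCYP1B1, against 183 and 187 CPM in SW480 shNT (log2 fold change -0.55, SE 0.07, adjusted p = 0.000102). In both genes the shCYP1B1 libraries were far below the shNT libraries, and the replicates differed little. PSMC2 fell by 0.41 and PSMC1 by 0.34. The 3 base genes outside the ATPase ring all fell: PSMD1 by 0.51, PSMD4 by 0.46 and PSMD2 by 0.25. PSMC1 did not pass without SW480 shCYP1B1 replicate 2 (adjusted p = 0.062) or shNT replicate 1 (0.0547), nor PSMD2 without SW480 shCYP1B1 replicate 1 (0.0952) or shNT replicate 2 (0.0799).

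None of the 8 lid genes passed as lower in SW480 shCYP1B1, and 1 rose (12.5%), where 25.3% of all genes fell and 25.3% rose. This was PSMD13, at 172 and 178 CPM in shCYP1B1, against 141 and 144 CPM in shNT (log2 fold change 0.30, SE 0.06, adjusted p = 0.00256). PSMD3, which led in RKO, had 238 and 241 CPM in SW480 shCYP1B1, against 231 and 230 CPM in SW480 shNT, a log2 fold change of 0.06 (adjusted p = 0.632). Its shCYP1B1 libraries lay just above its shNT libraries.

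In the SW480 core, 4 of 14 genes fell and none rose, with a median log2 fold change of -0.06. The share that fell, 28.6%, was close to the 25.3% of all genes. PSMB7 had 120 and 119 CPM in SW480 shCYP1B1, against 174 and 169 CPM in SW480 shNT, and was the catalytic gene that passed here (log2 fold change -0.52, SE 0.07, adjusted p = 9.1e-05). PSMB5 had 91.1 and 95.9 CPM in SW480 shCYP1B1, against 100 and 97.4 CPM in SW480 shNT (log2 fold change -0.08, SE 0.07, adjusted p = 0.391). PSMB6 had 128 and 124 CPM in shCYP1B1, against 131 and 119 CPM in shNT, with overlapping groups (0.01, SE 0.07, adjusted p = 0.885). PSMB10 had 13.2 and 10.4 CPM in shCYP1B1, against 16.8 and 13.8 CPM in shNT, and did not pass (-0.38, SE 0.17, adjusted p = 0.0875). Without either RKO CYP1B1 library, PSMB10, PSMB2, PSMC4, PSMD11, PSMD14 and PSMG1 also passed as lower in SW480 (adjusted p from 0.00177 to 0.0406).

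Of the other core genes, PSMA7 had 228 and 215 CPM in SW480 shCYP1B1, against 321 and 309 CPM in SW480 shNT (log2 fold change -0.51, SE 0.08, adjusted p = 0.000228). PSMA3 fell by 0.36 and PSMB4 by 0.25, and the call of PSMB4 was lost without SW480 shNT replicate 1 (-0.15, adjusted p = 0.22), shCYP1B1 replicate 1 (0.0879) or shCYP1B1 replicate 2 (0.111). The other 10 were not called, and PSMA1, PSMA2 and PSMB3, which rose in RKO, stood at 0.02, -0.03 and 0.01. Among the chaperones, PSMG2 had 63.4 and 63.8 CPM in SW480 shCYP1B1, against 54.4 and 51.9 CPM in SW480 shNT (log2 fold change 0.26, SE 0.08, adjusted p = 0.0248). PSMG3, the partner of PSMG4, fell by 0.37 (adjusted p = 0.0335), and PSMD5 fell by 0.34 (adjusted p = 0.00218). The calls of PSMG2 and PSMG3 were lost when any SW480 library was left out (adjusted p from 0.0577 to 0.134 and from 0.0566 to 0.204).

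Set side by side, 9 members rose in RKO CYP1B1 and fell in SW480 shCYP1B1, which is 20.5% of the members, where 3.45% of all genes tested did so. They were the core genes PSMA3, PSMA7 and PSMB4, the base genes PSMC1, PSMC2, PSMC3 and PSMD1, and the caps PSME2 and PSME3. Only PSMD13 was higher in both manipulated groups (2.27%, against 4.49% of all genes), and no member was lower in both or lower in RKO and higher in SW480, where 4.62% and 3.14% of all genes were. The lines share no libraries. Of the members, 52.3% rose in RKO CYP1B1 and 34.1% fell in SW480 shCYP1B1, against 13.8% and 25.3% of all genes. Whether the 9 exceed the overlap that these shares alone would give was not tested. Of the 9, PSMA3 and PSMC2 passed in both lines under each of the 14 alternatives tried.

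**Figure D3:**
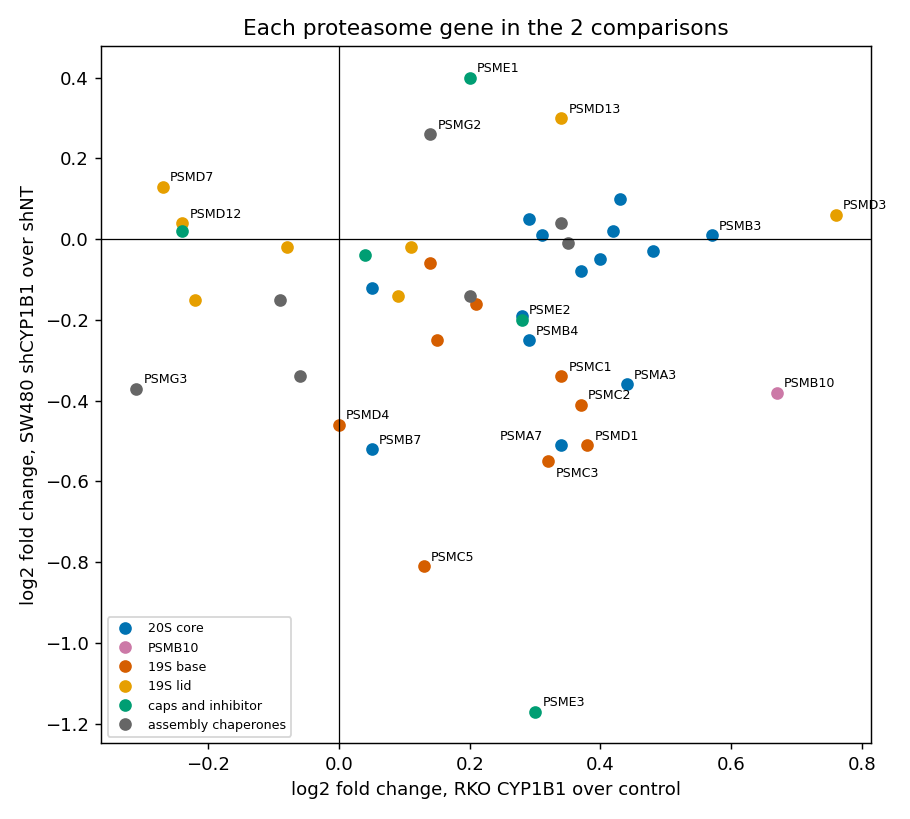
Log2 fold change of each of the 44 members in RKO, CYP1B1 over control (x axis), against that in SW480, shCYP1B1 over shNT (y axis), coloured by role. The 9 members that rose in RKO and fell in SW480 lie at the lower right, while PSMD3 and PSMB3 lie far to the right near 0 on the y axis and PSMC5 and PSMB7 lie low near 0 on the x axis.

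The effect of more CYP1B1 was also tested for a difference between the lines, as RKO CYP1B1 minus RKO control, less SW480 shNT minus SW480 shCYP1B1. This effect was more positive in RKO for 13 members and more positive in SW480 for 7, where 21.0% and 21.6% of all genes were called. The median was 0.04 over the members and -0.02 over all genes. The difference is signed and does not rank the lines by size of change. CYP1B1 itself was 685-fold higher in RKO CYP1B1 and 5.41-fold lower in SW480 shCYP1B1. Line, construct and size of the CYP1B1 change therefore cannot be told apart in this difference. PSME1, at 0.20 in RKO CYP1B1 and 0.40 in SW480 shCYP1B1, is among the 13, and PSMD14, at -0.22 and -0.15, is among the 7. With library sizes left unscaled, which moved all genes to a median of -0.08, the split was 10 and 10. The core held 8 of the 13, including PSMB3 at 0.58 (SE 0.10, adjusted p = 0.000933) and PSMB1 at 0.53. PSMD3 had the largest positive difference, at 0.82 (SE 0.13, adjusted p = 0.000522), followed by PSMD13 at 0.63 and PSME1 at 0.60, which in SW480 were higher in shCYP1B1. The largest negative differences were those of PSME3 at -0.87 (SE 0.13, adjusted p = 0.000257), PSMG3 at -0.69 and PSMC5 at -0.68, followed by PSMB7 at -0.47. PSMD5, at 148 and 153 CPM in RKO CYP1B1 against 159 and 155 CPM in RKO control, and at 58.5 and 56.8 CPM in SW480 shCYP1B1 against 75.5 and 70.1 CPM in SW480 shNT, differed by -0.40 (adjusted p = 0.00721). The count of 13 was 8 without RKO control replicate 2 and 7 without SW480 shNT replicate 2. The count of 7 was 12 without RKO CYP1B1 replicate 2 and 4 without SW480 shCYP1B1 replicate 1.

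The lines also differed in their starting levels, SW480 shNT against RKO control, where line and vector cannot be told apart and the libraries are those of the comparisons above. In SW480 shNT 19 members were higher and 15 lower, close to the 41.2% and 35.6% of all genes, with medians of 0.06 over the members and 0.08 over all genes. The SW480 shNT libraries lay above the RKO control libraries for 22 members and below them for 17, where 47.7% and 42.5% of all genes did. PSMD12 had 93.2 and 97.7 CPM in SW480 shNT, against 214 and 214 CPM in RKO control (log2 fold change -1.16, SE 0.07, adjusted p = 1.47e-08). PSMB7 had 174 and 169 CPM in SW480 shNT, against 397 and 363 CPM in RKO control (-1.15). The groups lay far apart for both. PSMD5 was lower in SW480 shNT by a similar amount (-1.11). PSMA2 was the most raised member in SW480 shNT, at 134 and 131 CPM, against 66.6 and 71.3 CPM in RKO control (0.94), followed by PSMA7 (0.85) and PSMC3 (0.83). The ATPase PSMC2 had 235 and 233 CPM in SW480 shNT, against 135 and 136 CPM in RKO control (0.79), and PSMD2 had 574 and 591 CPM in SW480 shNT, against 1070 and 1010 CPM in RKO control (-0.83).

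Per length, transcripts of subunits that occur in equal numbers in the particle were far from equal in level. FPKM divides by the gene length used, so the order of genes below depends on that length. By CPM, PSMA5 averaged 91 in RKO control and PSMA3 was lower, at 60.8, while by FPKM PSMA3 was higher, at 65.3. Across the 14 standard core genes, the median was 109 FPKM in RKO CYP1B1, 82.6 in RKO control, 81.8 in SW480 shCYP1B1 and 92.0 in SW480 shNT. PSMA5 was the lowest in every group, at 29.5 FPKM in RKO CYP1B1, 24.5 in RKO control and 19.8 in SW480 shNT. PSMB7 was the highest in RKO, at 406 FPKM in RKO CYP1B1 and 396 in RKO control, while PSMA7 was the highest in SW480, at 222 FPKM in shCYP1B1 and 326 in shNT. Across the 17 genes of the regulatory particle, medians were 80.9 FPKM in RKO CYP1B1, 69.3 in RKO control, 64.2 in SW480 shCYP1B1 and 78.1 in SW480 shNT, with PSMC6 the lowest in each group. Assembly chaperones were lower, with medians of 33.1, 26.6, 21.9 and 29.2 FPKM in the same groups, and PSMG4 stood under 3 FPKM in each. Relative to PSMB7, PSMB10 reached 8.82% or more of the FPKM in SW480 shCYP1B1 and 8.21% or more in SW480 shNT.

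**Figure D4:**
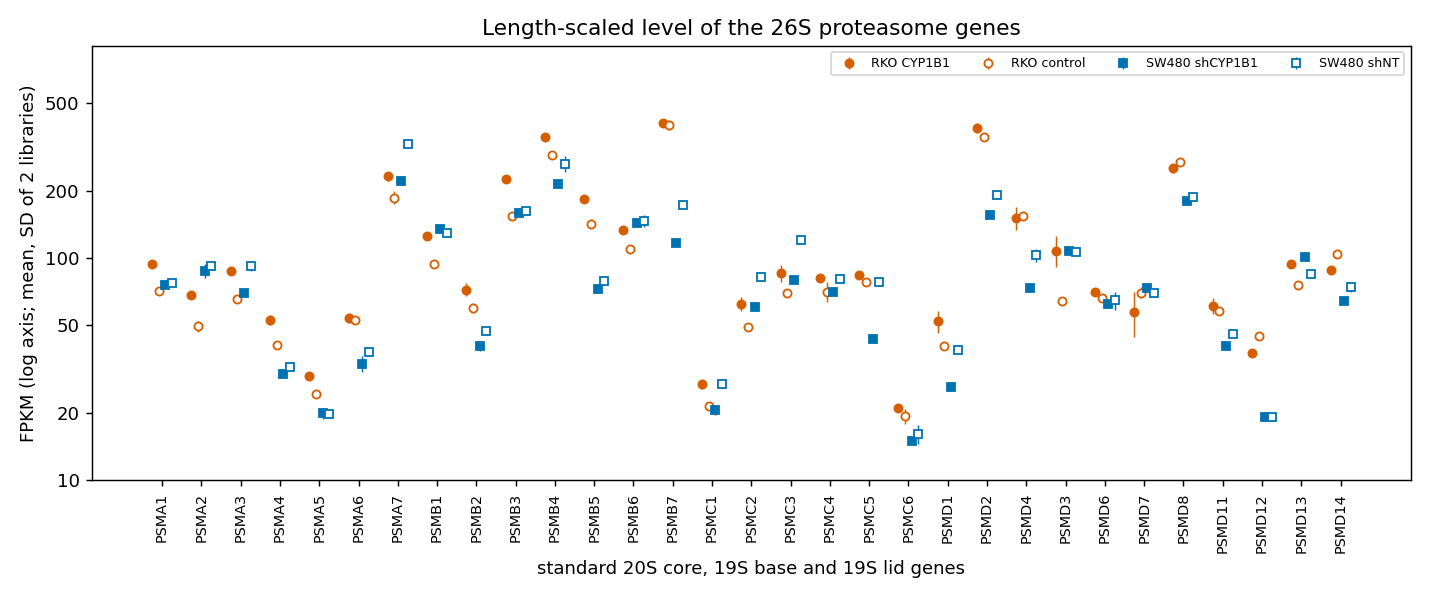
Level per length (FPKM, log axis; points are means and bars the SD of 2 libraries) of the 31 standard core, base and lid genes in RKO CYP1B1 and RKO control (filled and open circles) and in SW480 shCYP1B1 and SW480 shNT (filled and open squares). Core levels run from PSMA5, at 19.8 to 29.5, to PSMB7 and PSMA7, which lead in RKO and SW480.

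Genes that act beside the proteasome were described from lists. For NFE2L1 only the transcript was measured, and the part of this gene in the levels of the members was not tested. It fell in RKO CYP1B1, at 196 and 222 CPM, against 321 and 309 CPM in RKO control (log2 fold change -0.59, SE 0.07, adjusted p = 0.000311). In SW480 it did not pass (0.08, adjusted p = 0.377), while its relative NFE2L3 had 881 and 866 CPM in shCYP1B1, against 401 and 416 CPM in shNT (1.10, SE 0.07, adjusted p = 4.26e-07). Over the 14 genes of the NFE2L1 pathway, 2 rose and 4 fell in RKO (median -0.21), and 3 rose and 1 fell in SW480 (median 0.06). These are 14.3% and 28.6% of the list in RKO, against 13.8% of all genes each way, and 21.4% and 7.14% in SW480, against 25.3% each way. The ATPase VCP, which extracts ubiquitinated proteins for the proteasome and NFE2L1 from the endoplasmic reticulum, rose by 0.88 in RKO CYP1B1 (SE 0.12, adjusted p = 0.000467). Of 11 VCP cofactors, 1 rose and 1 fell in RKO (median -0.10) and 1 rose and 4 fell in SW480 (median 0.02), among them UFD1, at 0.40 in RKO and -0.27 in SW480. The cofactors' shares in RKO, 9.09% in each direction, were under the 13.8% of all genes, and in SW480 they were 9.09% higher and 36.4% lower, against 25.3% of all genes each way.

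Of 8 shuttle genes that carry ubiquitinated proteins to the proteasome, 7 were tested. In RKO none rose and NBR1 fell, by 0.43 (median of the list -0.02), and in SW480 none rose and 4 fell (median -0.21). The shares that fell were 14.3% in RKO and 57.1% in SW480, against 13.8% and 25.3% of all genes. RAD23B had 252 and 251 CPM in SW480 shCYP1B1, against 402 and 410 CPM in SW480 shNT (log2 fold change -0.69, SE 0.06, adjusted p = 5e-06), and SQSTM1 fell by 0.47. ECPAS, a scaffold that binds the proteasome, fell in both lines, by 0.34 in RKO CYP1B1 and by 0.64 in SW480 shCYP1B1. In SW480, the maturation list as a whole had 3 genes higher and 3 lower, with a median of 0.02, and POMP stood at 0.04 (adjusted p = 0.69). Each count is 18.8% of that list, under the 25.3% of all genes. Of 5 ubiquitin and E1 enzyme genes, 3 rose and none fell in RKO (median 0.22), and 1 rose and 1 fell in SW480 (median 0.11). The share that rose in RKO was 60%, against 13.8% of all genes, and in SW480 each direction held 20%, against 25.3%. Of the immunoproteasome neighbours, none rose and TAP2 fell in SW480, by 0.77 (14.3% of the list, against 25.3% of all genes).

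Some cytosolic heat shock genes rose in both lines. Of 13, 11 rose and none fell in RKO CYP1B1 (median 0.94), and 5 rose and none fell in SW480 shCYP1B1 (median 0.27). These are 84.6% and 38.5% of the list, where 13.8% and 25.3% of all genes rose. Their summed level was 11500 and 14600 CPM in RKO CYP1B1, against 8310 and 7780 CPM in RKO control, and 16600 and 16800 CPM in SW480 shCYP1B1, against 12700 and 12700 CPM in SW480 shNT. In RKO the second overexpression library had the higher sum. HSP90AA1 and HSP90AB1 stand in this list, and both also in that of maturation genes. The part of the heat shock genes in the result was not tested.

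In GENCODE 29, 10 of the 44 members overlap an exon of another gene in the table, all on the opposite strand. Besides PSME3 and PSMC5, these are PSMA2, PSMC1, PSMD13, PSME1, PSME2, PSME4, PSMG2 and PSMG4, whose counts may include reads of the partner. EMC9, the partner of PSME1, had a log2 fold change of -0.67 in SW480, where PSME1 had 0.40. Named pseudogenes exist for 12 members, none of them in the table, and reads that these copies share with their parent gene are uncertain. Chromosomes 14 and 17 hold 7 members each, and the replicates of a group differed by a median of 0.049 to 0.088 on the log2 scale over the members, against 0.094 to 0.195 over all genes. The values of 0.088 and 0.195 are those of RKO CYP1B1. Over all genes the other groups stood at 0.094 to 0.099, and the fit shares 1 estimate of the spread among all 4 groups. Of single members, the widest gap was that of PSMD7 between the RKO CYP1B1 libraries, at -0.47.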

How the data were processed

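Groups and replicate numbers come from the sample titles. The authors deposited raw read counts per gene, and a second table of FPKM, for 16829 genes. The submitters' processing notes name the build GRCh38.p13. Which aligner, counter, annotation and strand setting were used is not given in the sources used here. Libraries came from a stranded mRNA kit, per the labels' protocols. FPKM served only to compare levels between genes.

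Counts were filtered by filterByExpr (groups as design, at least 10 counts and 15 in total), leaving 14157 genes, and scaled with TMM. A quasi-likelihood model with 1 coefficient per group was fitted over all 8 libraries (edgeR 4.0.16, R 4.3.3; 4 residual degrees of freedom), and p-values were Benjamini-Hochberg adjusted over all genes tested (threshold 0.05). "Rose", "fell" and "called" mean that a gene passed. CPM use TMM-scaled library sizes. An exact permutation of 2 libraries against 2 cannot go below 0.333 and was not used. The steps were tested on simulated data. Of genes changed 1.5-fold there, 58.5% were recovered in the RKO comparison and 61.5% in that of SW480. Smaller changes were not simulated, and in each line only 2 members changed by more than 1.5-fold.

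The members and lists were chosen with earlier results of these data known, and 2 genes of the lists are not reported here. Full library values are given for PSMB5, PSMB6, PSMB7, PSMB10 and up to 5 called members with the smallest p in each direction within each line, up to 4 in the other comparisons, and up to 3 called genes a direction are named from each list. Other members and genes named were chosen with their values in view. Coordinates come from GENCODE 29 and promoters from RefSeq on GRCh38.p14. The results were recomputed with RLE scaling, unscaled library sizes, no filter on low counts, DESeq2 1.42.0, each line alone, a block for the replicate number, and without each library in turn.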

Additional observations from a re-analysis of the deposited data

Results flagged for a closer look

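For 20 members the effect of more CYP1B1 differed between the lines in edgeR's quasi-likelihood test of the difference itself, adjusted over all genes. That test called 21.0% of all genes as more positive in RKO and 21.6% as more positive in SW480. It cannot tell apart line, construct and size of the CYP1B1 change, which was 685-fold in RKO and 5.41-fold in SW480. Values are log2 differences, RKO CYP1B1 minus RKO control less SW480 shNT minus SW480 shCYP1B1. In the alpha ring the difference was 0.43 for PSMA1, 0.45 for PSMA2, 0.35 for PSMA4 and 0.34 for PSMA5. In the beta ring it was 0.53 for PSMB1, 0.58 for PSMB3, 0.29 for PSMB5, 0.32 for PSMB6 and -0.47 for PSMB7. In the regulatory particle it was -0.68 for PSMC5, -0.46 for PSMD4, 0.82 for PSMD3, 0.63 for PSMD13 and -0.37 for PSMD14. Among caps and chaperones it was 0.60 for PSME1, -0.87 for PSME3, -0.40 for PSMD5, 0.38 for PSMD10, 0.40 for PSMG2 and -0.69 for PSMG3.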

How the results depend on the processing

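Counts of called members stayed within 1.5 times the main count, in each direction of all 4 comparisons, under RLE scaling, unscaled library sizes, no filter and DESeq2. With the RKO libraries fitted alone, 0 members fell in RKO (2294 genes were called in all, against 3907) and 16 rose; 24 and 3 had an unadjusted p under 0.05. With the SW480 libraries fitted alone, 4 members rose and 22 fell in SW480, with 9071 genes called in all, against 7167. With the replicate number as a block, 23 members rose and 3 fell in RKO (PSMD14 lost its call, adjusted p = 0.06, and PSMD7 gained one, adjusted p = 0.0468), 3 rose and 14 fell in SW480, 11 and 7 differed between the lines, and 17 and 15 differed between SW480 shNT and RKO control. Over all genes tested, the correlation of deviations of same-numbered libraries was -0.01 in each line, which shows no pairing by number. With 2 libraries a group the replicates deviate by equal and opposite amounts, so this is a single check per line. It cannot settle whether same-numbered libraries shared a culture or batch.

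Leaving out each library in turn gave 10 to 26 members higher and 0 to 6 lower in RKO, with 1784 to 5629 genes called. The remaining lone library of a group was assumed to vary like the other groups. In SW480 it gave 2 to 3 higher and 11 to 21 lower, and between the lines 7 to 14 higher and 4 to 12 lower. Over all 14 alternatives, 9 of 26 calls in RKO were kept and 12 of 18 in SW480. The fit of each line alone gives no comparison between lines. Over the other alternatives, 10 of 20 calls between the lines were kept and 27 of 34 between SW480 shNT and RKO control. No called member changed sign.

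Members that were not called did change sign. In SW480, PSMD6 and PSMD9 stood at 0.01 under RLE scaling and DESeq2, and PSMA1 at -0.03, PSMB3 at -0.03, PSMB6 at -0.03 and PSME4 at -0.02 with unscaled library sizes. Leaving out a library changed the sign of PSMG1 (-0.24 to 0.05), PSMB7 (-0.01 to 0.12) and PSMF1 (-0.02 to 0.10) in RKO, and of PSMF1 (-0.07 to 0.01), PSMA2 (-0.09 to 0.05), PSMD6 (-0.09 to 0.08), PSMD9 (-0.10 to 0.09), PSMD10 (-0.05 to 0.14), PSMD8 (-0.05 to 0.01), PSMA1 (-0.01 to 0.06), PSMB3 (-0.03 to 0.07), PSMB6 (-0.05 to 0.09) and PSMC6 (-0.15 to 0.04) in SW480. Of these changes the cause was not tested.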
